A study of Rattus norvegicus with 9 samples.

Results

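Dorsal root ganglia (DRG) of rats that received G15 after spared nerve injury (SNI + G15) were set against DRG of rats with the injury alone (SNI). The comparison used 6 of the 9 libraries of the series, 3 per group. It covered the 14305 of 20194 genes that reached an FPKM (fragments scaled by transcript length and library size) of at least 1 in at least 1 of the 9 libraries. The question was which genes went with intrathecal G15 in injured ganglia, and which of those differences remained when a shift of the SNI + G15 libraries towards short transcripts was taken into account.

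All animals were adult male Sprague Dawley rats, and the tissue label of every library was DRG. In SNI the tibial and common peroneal branches of the sciatic nerve are cut and ligated and the sural branch is spared. According to the labels, intrathecal catheters were placed on SNI day 5, and drugs in 2% DMSO were given through the catheter for 24 h. The titles call the SNI libraries the G15 control without naming what was injected, so G15, its solvent and the injection cannot be told apart. The methods give 3 rats per group, while the study's list of animal numbers gives more for RNA-seq, so whether a library holds 1 rat or several is not clear. The titles of the 3 SNI + G15 libraries all carry the name SNI1, so the titles leave it unclear whether these libraries come from separate rats. The p-values below measure the spread between these 3 libraries per group. The 3 sham libraries are given as levels beside the other groups and entered no test.

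G15 is an antagonist of GPER, a G protein-coupled receptor for estrogen that acts outside the nucleus. A DRG holds the cell bodies of sensory neurons, wrapped by satellite glia, with myelinating Schwann cells, blood vessels, fibroblasts and resident macrophages between them and a capsule of connective tissue continuous with the meninges. After a nerve is cut, the neurons switch on regeneration genes, macrophages and satellite glia respond, and interferons, cytokines that act through JAK kinases, STAT factors and IRF9, maintain a set of antiviral genes.

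The libraries held between 18484557 and 18756736 estimated counts, so depth was alike. Atf3, the transcription factor that marks injured sensory neurons, had 6.95 to 8.27 CPM (counts scaled to a common library size, here by TMM over the 9 libraries) in sham. In the SNI libraries it had 258 to 268 CPM, and with G15 it had 249 to 266, so the libraries of both injured groups carried the mark of injury. Its reads were divided between similar sequences, which makes estimated counts that are not whole. Genes with such counts in any of the 6 libraries are said below to have divided reads, and their values are uncertain. The 7 defining markers of sensory neurons summed to 14962 to 15469 CPM in SNI and 14900 to 15756 in SNI + G15, with the SNI range inside that of SNI + G15. The test described below called 1 of the 7 higher and 2 lower. After correction for transcript length it called 0 higher and 2 lower. The labels' extraction text names macrophages, and its library kit differs from that in the methods. The median SD of a gene's log2 CPM within a group was 0.0593 in SNI and 0.0918 in SNI + G15, over 13192 genes with a mean of at least 50 counts.

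With edgeR's quasi-likelihood test, 15.2% of the tested genes were called at an adjusted p below 0.05, 7.98% higher and 7.25% lower in SNI + G15. The count of 2179 genes fell to 1098, 925 and 893 without SNI replicate 1, 2 and 3, and it was 1292 with a replicate block. The values of the groups did not overlap for 38.9% of the tested genes. Fold changes below are log2 values of SNI + G15 over SNI, with their standard error (SE). The second value given for many genes comes from a fit that corrects each library for transcript length. The test was repeated in 16 other fits, and a gene named without a remark on this was called in the same direction in every fit that tested it. In bulk tissue, fewer cells of a type and less RNA per cell cannot be told apart.

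Among genes with whole counts and a mean of at least 30 reads in the higher group, the largest rises were in Msln, Wisp2, Fam111a, Dhrs9 and Lbp. Msln, which encodes mesothelin of mesothelial surfaces, had 0.213, 0.159 and 0.266 CPM in SNI, from 4, 3 and 5 reads, and 3.15, 4.68 and 3.60 in SNI + G15 (log2 fold change 4.12, SE 0.30, adjusted p = 8.68e-05). Wisp2, a matricellular protein of the CCN family, had 1.12, 0.900 and 0.639 CPM in SNI and 7.84, 6.73 and 7.99 in SNI + G15 (3.08, SE 0.20, adjusted p = 3.66e-05). Both lay below their sham levels in SNI and above them in SNI + G15, with sham at 0.653 to 0.711 CPM for Msln and 3.18 to 4.08 for Wisp2. Fam111a, a protease with roles in DNA replication and in restricting viruses, had 1.92, 1.69 and 1.65 CPM in SNI and 11.7, 10.5 and 11.6 in SNI + G15 (2.68, SE 0.12, adjusted p = 4.27e-06). Dhrs9, a dehydrogenase of retinoid and steroid metabolism, had 0.479, 0.318 and 0.373 CPM in SNI and 2.35, 2.64 and 1.56 in SNI + G15 (2.46, SE 0.32, adjusted p = 0.00162). Lbp, the plasma protein that hands lipopolysaccharide to its receptor, had 12, 11.3 and 11.8 CPM in SNI and 60.6, 66.8 and 56.1 in SNI + G15, a 5.23-fold rise (2.39, SE 0.078, adjusted p = 5.90e-07). The naming rule admitted only genes whose groups did not overlap, so the separation of the libraries was fixed by that choice.

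Reads were divided for the other genes that the naming rule placed among the largest rises. Kcnj16, an inward rectifier potassium channel subunit, had 1.22, 1.01 and 1.12 CPM in SNI and 6.24, 5.28 and 8.21 in SNI + G15. Mcpt1l1, a mast cell protease, had 1.01, 0.529 and 0.586 CPM in SNI and 3.79, 4.20 and 4.29 in SNI + G15. Dstnl1, which resembles the actin-severing protein destrin, had 4.53, 7.09 and 9.38 CPM in SNI and 42.9, 25 and 44.3 in SNI + G15. For 3 further genes the SNI libraries were at or near 0, so no fold is given. Rplp0l1 had 1, 0 and 0 reads in SNI and 46, 31 and 41 in SNI + G15, Ndufa10l1 had 8, 0 and 5 against 119, 141 and 181, and Tsr2 had 0, 5 and 0 against 14, 62 and 110. The call of Tsr2 was lost without SNI replicate 3, with all 9 libraries in the fit and with limma at a pseudocount of 1. In sham, Ndufa10l1 had 531, 587 and 598 reads and Rplp0l1 had 42, 47 and 26, above or near the SNI + G15 libraries.

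Among the named genes the largest fall was in Alox15, which encodes a lipoxygenase that oxygenates arachidonic and linoleic acid. Its level was 21.2, 20.2 and 22.3 CPM in SNI and 1.92, 2.26 and 1.72 in SNI + G15, a 10.8-fold difference (-3.43, SE 0.10, adjusted p = 4.29e-07), with sham between 0.381 and 0.985. Rasd2, a small GTPase of the Ras family, had 13.5, 12.8 and 12.4 CPM in SNI and 2.67, 3.55 and 2.58 in SNI + G15, below the 5.17 to 5.58 of sham (-2.13, SE 0.12, adjusted p = 2.51e-05). Nqo2, a quinone reductase, had 21.7, 24.5 and 20.4 CPM in SNI, 5.71, 5.87 and 5.15 in SNI + G15 and 17.7 to 19.1 in sham (-1.99, SE 0.095, adjusted p = 7.51e-06). For Nqo2 the SNI libraries were somewhat above sham, and the SNI + G15 libraries stood apart from both. Krt19, a keratin of simple epithelia, had 4.53, 4.18 and 4.96 CPM in SNI and 1.39, 1.51 and 1.82 in SNI + G15 (-1.53, SE 0.17, adjusted p = 0.000872). Kel, an erythroid surface protease, had 1.33, 1.11 and 2.40 CPM in SNI and 0.640, 0.377 and 0.429 in SNI + G15 (-1.73, SE 0.39, adjusted p = 0.0206). That call was lost without SNI replicate 3, without SNI + G15 replicate 2 and with limma at both pseudocounts. H3f3c and Tprkb, both with divided reads, had log2 fold changes of -2.55 and -1.68. Hoxc11, Ccl11, Cxcl9, Rsad2 and Ifit1 complete these falls and are described with their families.

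**Figure D1:**
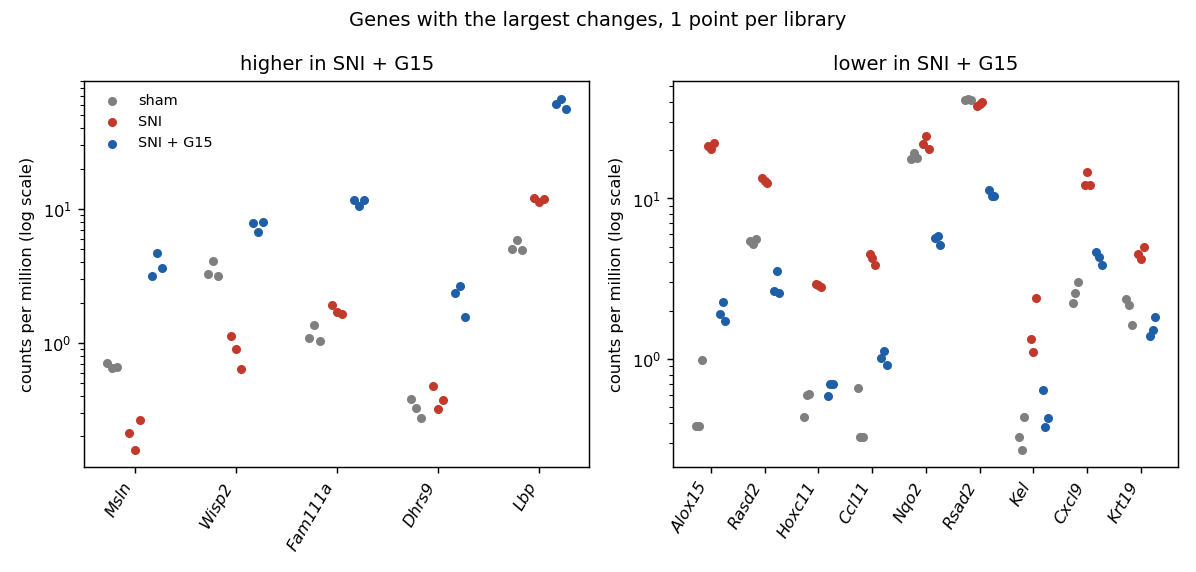
CPM on a log axis of the genes with the largest changes among those with whole counts and a mean of at least 30 reads in the higher group, 1 point per library, for sham, SNI and SNI + G15; genes higher in SNI + G15 are on the left and genes lower in SNI + G15 on the right. The SNI + G15 points of Lbp lie between 56.1 and 66.8 CPM against 11.3 to 12 in SNI, and those of Alox15 between 1.72 and 2.26 against 20.2 to 22.3.

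Many differences followed transcript length. In the shortest 10th of the genes (effective length 122 to 986 bases, n = 1431 genes) 23.8% were called higher and 1.96% lower in SNI + G15, and the median log2 fold change was 0.222. In the longest 10th (5661 to 22663 bases) 3.28% were higher and 19.1% lower, with a median of -0.126. The medians of the groups between them fell with each step in length. The slope of a library's log2 CPM, centred per gene, on log2 effective length was 0.0270, 0.0377 and 0.0609 in SNI and -0.0099, -0.0245 and -0.0912 in SNI + G15. The mean slopes differed by -0.0838, with no overlap between the groups (two-sided exact permutation test, p = 0.1, the smallest that 3 against 3 libraries allow). SNI + G15 replicate 3 stood farthest out, and without it the difference was -0.0591. Over all 9 libraries the sham slopes were 0.0626, -0.0078 and 0.0358, a wider range than that of SNI. The mean length of a sequenced transcript, weighted by molecules, was 2042 bases in SNI and 1928 in SNI + G15 (difference -114, exact permutation test, p = 0.1).

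The same shift was measured within genes that have a short and a long transcript. In 475 genes whose transcripts differed at least 2-fold in length, the median log2 ratio of short over long was 0.030, -0.000 and 0.049 in SNI and -0.008, 0.036 and -0.069 in SNI + G15. The groups overlapped, and the difference of -0.040 pointed the other way (exact permutation test, p = 0.300). The slope difference itself was -0.0829 over the 6033 genes with 1 annotated transcript. It was -0.0805 without the ribosomal protein, oxidative phosphorylation, interferon, erythroid and fibroblast genes. Whether RNA quality or library preparation moved with the groups was not tested, because no measure of either was used here.

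After each library was corrected for length, the medians of the 10 length groups lay between -0.008 and 0.006, and 11.9% of the tested genes were called, 5.91% higher and 5.96% lower. Of the genes called with TMM, 1354 (683 higher and 671 lower) were called in the same direction, 825 lost their call and none was called in the opposite direction. A further 344 genes were called only after the correction. In every one of the 17 fits, 616 genes were called, 337 higher and 279 lower.

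**Figure D2:**
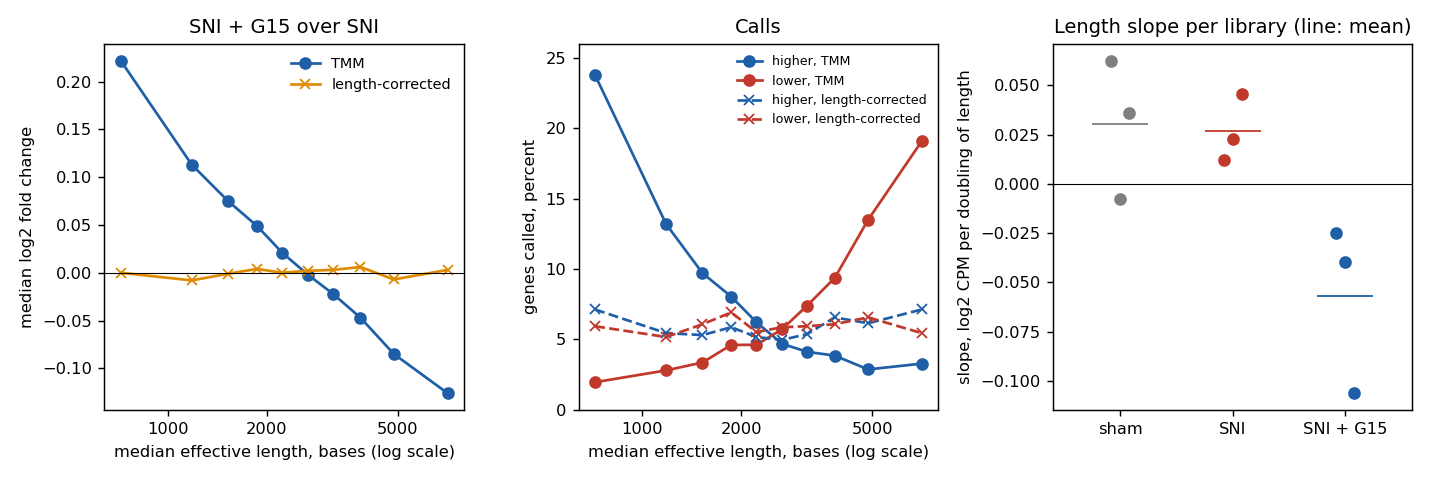
Left, median log2 fold change of SNI + G15 over SNI in 10 groups of genes ordered by effective length, with TMM and after length correction. Centre, percent of genes called in the same groups; right, slope of log2 CPM on log2 length in each library, with the group mean as a line. With TMM the medians fall from 0.222 to -0.126, and after correction they stay between -0.008 and 0.006.

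Interferon-stimulated genes were lower in SNI + G15 in most of the lists that hold them. Of 83 tested genes in 5 lists (sensors, signalling, effectors, ISG15 conjugation and interferon-induced GTPases), 51 were lower and 5 higher in SNI + G15, with 27 not called and a median log2 fold change of -0.38, against 0.006 over all tested genes. After length correction 55 were lower and 2 higher (median -0.43), and 41 were lower in every fit. Among the sensors of foreign nucleic acid 11 of 15 were lower and none higher. Ddx58, which encodes the RNA sensor RIG-I, had 33.0, 32.5 and 33.4 CPM in SNI and 18.2, 18.1 and 18.5 in SNI + G15 (-0.85, SE 0.051, adjusted p = 2.83e-05; length-corrected -0.78). Zbp1, a sensor of Z-form nucleic acid, had 8.25, 7.62 and 7.83 CPM in SNI and 3.95, 4.36 and 3.92 in SNI + G15, with sham at 5.42 to 5.60. Dhx58, a regulator of RIG-I, fell by 0.94 on the log2 scale (SE 0.097, adjusted p = 0.000528).

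Of the 17 tested signalling genes 6 were lower, among them Stat2 and Irf9, which encode partners in a complex that carries the signal to the nucleus. Stat2 had 109, 114 and 113 CPM in SNI and 76.9, 78.4 and 77.7 in SNI + G15 (-0.52, SE 0.041, adjusted p = 0.000128), and Irf9 had a fold change of -0.35. Irf7, the factor that amplifies interferon production, had 84.0, 83.0 and 76.9 CPM in SNI, 30.2, 35.6 and 30.7 in SNI + G15 and 78.1 to 86.5 in sham (-1.34, SE 0.071, adjusted p = 1.64e-05). The receptor subunit Ifngr2 was higher (0.29, divided reads), and Irf3 was higher with TMM (0.20, adjusted p = 0.0352) but not after length correction (adjusted p = 0.121). Irf3 also lost its call when any SNI library or SNI + G15 replicate 1 was left out.

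Of 36 effectors 24 were lower and 3 higher. Rsad2, the radical enzyme viperin, had 37.6, 38.6 and 40.1 CPM in SNI and 11.3, 10.4 and 10.3 in SNI + G15, a 3.64-fold fall (-1.86, SE 0.061, adjusted p = 5.90e-07), and 41.1 to 41.9 in sham. Ifit1, which binds foreign RNA, had 10.7, 9.90 and 11.1 CPM in SNI and 2.35, 1.83 and 2.20 in SNI + G15 (-2.31, divided reads), and Mx1, an antiviral GTPase with divided reads, had 54.9, 57.4 and 50.9 against 26.9, 26 and 23.6. For Rsad2, Irf7 and Ifit1, sham was near or above SNI, and the SNI + G15 libraries lay below all the other 6. The 3 effectors that were higher, Ifitm1, Ifitm2 and Ifitm3, encode small membrane proteins that block viral entry, and all have divided reads. The calls of Ifitm2 (0.24) and Ifitm3 (0.26) were lost after length correction, where their fold changes were 0.00 and 0.01, and that of Ifitm1 fell from 0.50 to 0.28 and was kept.

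ISG15 is a ubiquitin-like protein that enzymes attach to other proteins, and 4 of its 6 pathway genes were lower. Isg15 itself had 22.4, 23.9 and 22.5 CPM in SNI and 7.89, 7.81 and 11.5 in SNI + G15 (-1.34, SE 0.13, adjusted p = 0.000382). Uba7, its activating enzyme, fell by 0.93 on the log2 scale, Herc6, its ligase, by 0.62 and Usp18, the protease that removes it and dampens the receptor, by 1.44. Of 9 interferon-induced GTPases 6 were lower, with Gbp6 at -1.08 (divided reads) and Ifi47 at -0.43. The 4 genes of ISG15 conjugation and 4 of the 6 GTPases were lower in every fit.

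**Figure D3:**
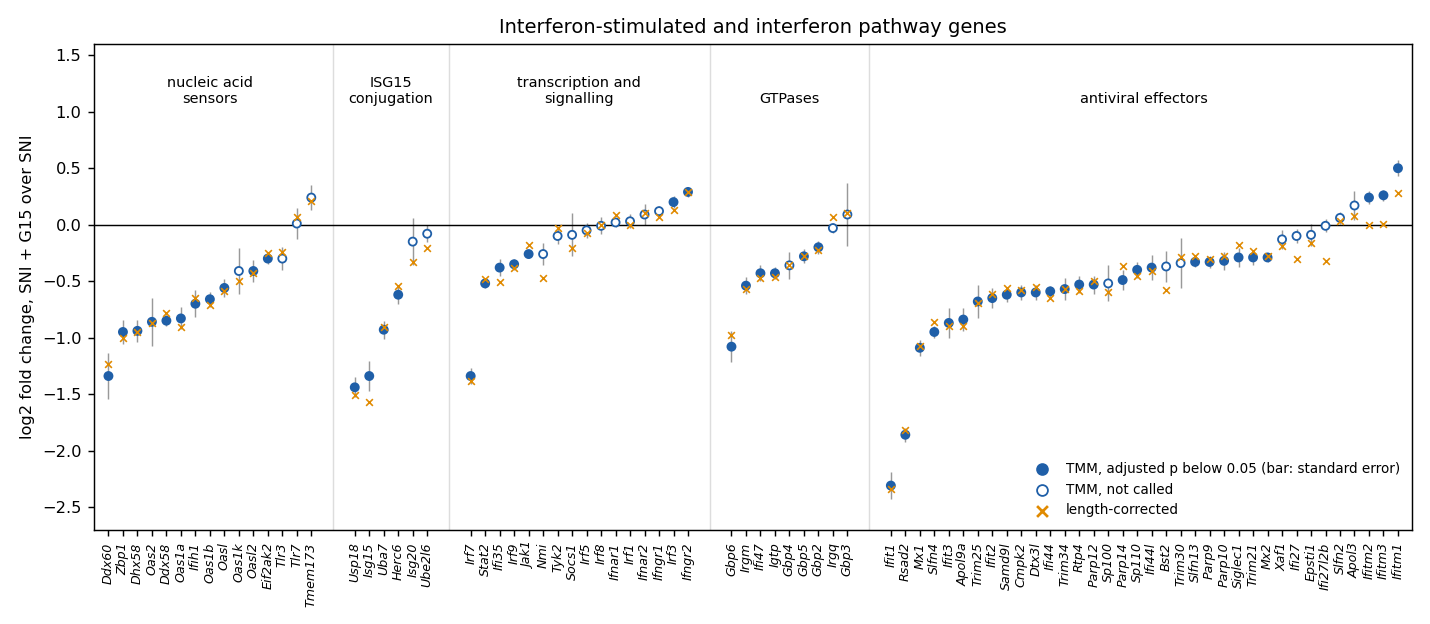
Log2 fold change of SNI + G15 over SNI for interferon genes in 5 lists, with 1 of the 83 tested genes not drawn; circles are the TMM fit with bars of 1 standard error (filled, adjusted p below 0.05; open, not called) and crosses the length-corrected fit. Of the 83 genes 51 are called lower, and the crosses lie far from the circles for Ifitm2, Ifitm3 and Ifi27l2b (-0.01 with TMM and -0.32 after correction).

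Interferon acts on many of these genes through the interferon-stimulated response element (ISRE), which a complex that holds STAT2 and IRF9 binds. The letters GAAA, followed after any 2 bases by GAAA again, were searched on both strands in the 250 bases before the start of each gene (RefSeq, GRCr8), for the 11140 tested genes with a promoter entry. They were found in 2.59% of all those promoters, in 6.48% of genes called lower and in 2.31% of genes called higher. Among the interferon lists they were found in 20 of 36 promoters of genes called lower (55.6%) and in 10 of 27 of those not called lower (37.0%). Among genes called lower that belong to no interferon list the share was 4.18%. A match of letters is a description of the promoter and not a binding site. The promoters of 5 genes that fell and of Ifitm3 are shown because each holds the element. Ddx60, Ifit3 and Ifih1 were chosen for display after their values were seen; Ddx60 and Ifit3 have divided reads. Letters in capitals are the element or its reverse complement.
Rsad2, chr6:48788178-48788277, minus strand, log2 fold change -1.86: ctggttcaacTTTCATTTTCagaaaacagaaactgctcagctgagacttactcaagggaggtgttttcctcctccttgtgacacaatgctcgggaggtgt
Irf7, chr1:205800024-205800123, minus strand, log2 fold change -1.34: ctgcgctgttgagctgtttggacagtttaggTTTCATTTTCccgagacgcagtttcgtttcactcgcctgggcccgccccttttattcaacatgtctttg
Ddx60, chr16:33208840-33208939, minus strand, log2 fold change -1.34: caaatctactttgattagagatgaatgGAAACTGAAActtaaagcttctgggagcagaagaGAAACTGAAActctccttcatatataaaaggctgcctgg
Ifit3, chr1:241527226-241527325, plus strand, log2 fold change -0.87: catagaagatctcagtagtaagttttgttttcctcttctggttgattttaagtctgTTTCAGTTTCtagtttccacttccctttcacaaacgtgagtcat
Ifih1, chr3:67683969-67684068, minus strand, log2 fold change -0.70: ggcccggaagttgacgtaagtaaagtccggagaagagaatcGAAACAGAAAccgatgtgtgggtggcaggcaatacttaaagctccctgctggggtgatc
Ifitm3, chr1:205541759-205541858, minus strand, log2 fold change 0.26: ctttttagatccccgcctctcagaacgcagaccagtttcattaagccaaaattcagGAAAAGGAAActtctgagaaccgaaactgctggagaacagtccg
In Ddx60, which encodes a helicase that aids RIG-I, the element occurs at 2 places, and Ifitm3 carries it although its RNA did not fall.

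Antigen presentation genes, many of them also inducible by interferon, were lower too. Of 24 MHC class I and antigen processing genes 11 were lower and none higher, and 16 were lower after length correction. B2m, the light chain of every class I molecule, had 1100, 1068 and 1016 CPM in SNI and 857, 829 and 864 in SNI + G15 (-0.32, SE 0.039, adjusted p = 0.00116). The class I genes RT1-S3 and RT1-T24-4 and the peptide transporter gene Tap1, all with divided reads, had fold changes of -0.91, -0.63 and -0.52. Of 11 MHC class II genes 5 were lower and none higher. RT1-Ba, a class II chain, had 69.4, 74.5 and 69.2 CPM in SNI and 48.2, 48.2 and 50.9 in SNI + G15 (-0.53, SE 0.051, adjusted p = 0.000357), with sham at 15.5 to 18.9. Cd74, the class II chaperone, fell by 0.25 on the log2 scale (adjusted p = 0.00690; length-corrected -0.36).

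Chemokines moved both ways. Of 25 tested 4 were higher and 7 lower, and after length correction 2 were higher and 10 lower. Cxcl9 and Cxcl10 encode ligands of the T cell receptor CXCR3 that interferon induces. Cxcl9 had 12.2, 14.6 and 12.1 CPM in SNI and 4.64, 4.31 and 3.86 in SNI + G15 (-1.60, SE 0.11, adjusted p = 6.44e-05), and Cxcl10 had 12.6, 14.2 and 13.2 against 8.32, 8.72 and 8.69 (-0.64, SE 0.075, adjusted p = 0.00102). Ccl11, the eosinophil attractant eotaxin, had 4.53, 4.23 and 3.84 CPM in SNI and 1.01, 1.13 and 0.912 in SNI + G15, with 0.326 to 0.657 in sham (-2.04, SE 0.19, adjusted p = 0.000286). Cxcl13, which attracts B cells, fell by 0.81 on the log2 scale. Ccl21, made by lymphatic endothelium, had 3.20, 3.18 and 3.09 CPM in SNI, 10.6, 11.6 and 11.3 in SNI + G15 and 12.6 to 17.6 in sham (1.82, SE 0.095, adjusted p = 1.50e-05). Cxcl14, an attractant of monocytes, rose by 1.98. The calls of Ccl6 (0.46) and Cxcl1 (1.03) were lost after length correction, and that of Cxcl1, from fewer than 30 reads per library, also when any 1 of the 6 libraries was left out.

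Acute phase genes encode plasma proteins of systemic inflammation, and their list also held genes that recognise lipopolysaccharide, such as Cd14. Of these genes 6 of 15 were called higher and 1 lower in both fits. With TMM 8 were not called, among them Hp (0.07), Lcn2 (-0.05) and Cp (0.11). Chi3l1, a chitinase-like secreted protein, had 18.6, 19.4 and 19.6 CPM in SNI and 38.2, 39.2 and 42.9 in SNI + G15 (1.06, SE 0.062, adjusted p = 2.51e-05). A2m, a protease trap with divided reads, had 171, 169 and 164 CPM in SNI and 344, 340 and 303 in SNI + G15. Steap4, a metalloreductase, rose by 0.36, and Lbp is given above. Serpina3n, a serine protease inhibitor with divided reads, was the member that fell (-1.15). Among 14 serpins 5 were higher and 2 lower, with Serpine2, an inhibitor of thrombin, and Serpinf1, the antiangiogenic factor PEDF, each at 0.34 and Serpinb1b, with divided reads, at 2.21.

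Complement genes moved both ways. Of 24 tested 5 were higher and 3 lower. C2 and C3, of the activating cascade, fell by 0.28 and 0.50 on the log2 scale, with C3 at 48.5, 44.9 and 47.5 CPM in SNI and 31.6, 35.4 and 32.5 in SNI + G15 (SE 0.061, adjusted p = 0.00112). C4b also fell with TMM (-0.25, divided reads), a call lost after length correction. Cfd and Cfp, the protease and the stabiliser of the alternative pathway, rose by 1.15 and 0.55. Cfd had 5.64, 3.97 and 4.42 CPM in SNI and 10, 9.91 and 11.2 in SNI + G15.

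Among 23 enzymes of lipid mediators Alox15 was the only one called lower, and 6 were higher. Ptges, which makes prostaglandin E2, had 5.11, 4.82 and 5.81 CPM in SNI and 8.85, 9.21 and 8.32 in SNI + G15 (0.74, SE 0.11, adjusted p = 0.00248). Pla2g2d, a secreted phospholipase, rose by 1.35 (SE 0.22, adjusted p = 0.00443). Pla2g2a, another, rose by 1.37, a call lost without SNI replicate 2 or 3.

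Heme and iron genes were higher in 6 of 28 and lower in 1. Hmox1, which degrades heme, had 33.9, 33.8 and 34.5 CPM in SNI and 66.9, 70.3 and 73.8 in SNI + G15, a rise of 1.04 (SE 0.053, adjusted p = 1.15e-05; length-corrected 0.97), with sham at 16.3 to 21.7. Tf, transferrin, had 80.4, 81.6 and 79.9 CPM in SNI and 113, 116 and 126 in SNI + G15 (0.56, SE 0.050, adjusted p = 0.000270). Fth1, the ferritin heavy chain, rose by 0.51 and Cd163, the macrophage receptor for hemoglobin, by 0.48, both with divided reads. Slc25a37, a mitochondrial iron importer, was the gene called lower (-0.32), and its call was lost in 13 other fits. Of 29 targets of the oxidative stress factor NRF2, 8 were higher and 1, Nqo2, lower, and 5 were higher after length correction.

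Genes that glucocorticoid hormones induce were higher without exception among those called, in 11 of 21 tested with both fits and in 10 of 21 in every fit (median 0.36, length-corrected 0.28). Zbtb16, a zinc finger factor with divided reads, had 10.1, 9.10 and 10.7 CPM in SNI and 22.7, 23.1 and 28.8 in SNI + G15 (1.32, SE 0.11, adjusted p = 0.000160), with sham at 25.4 to 29.2. Sult1a1, a sulfotransferase, had 21.2, 23.9 and 20.3 CPM in SNI and 32.9, 34.0 and 34.3 in SNI + G15 (0.63, SE 0.069, adjusted p = 0.000698). Cebpd, a transcription factor of acute phase genes, rose by 0.59 and Glul, glutamine synthetase of satellite glia, by 0.40. Glul had 315, 317 and 306 CPM in SNI and 413, 407 and 417 in SNI + G15.

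Immediate early genes, which cells switch on within minutes of a stimulus, were higher in 9 of 25 and lower in none in each fit, with 8 called in both. Junb had 45.1, 41.2 and 44.1 CPM in SNI and 62.0, 63.9 and 65.2 in SNI + G15 (0.55, SE 0.052, adjusted p = 0.000336), and Fos had 14.1, 13 and 11.7 against 16.7, 19.5 and 19.6 (0.52, SE 0.091, adjusted p = 0.00656). Zfp36, which destabilises cytokine mRNA, rose by 0.44. Of 16 clock genes 3 were lower and none higher, 18.8% called and so near the 15.2% of all tested genes. Nr1d1, the repressor REV-ERB alpha with divided reads, had 38.1, 37.6 and 42.4 CPM in SNI and 24.3, 28.1 and 23.6 in SNI + G15 (-0.64, SE 0.079, adjusted p = 0.00132). Nr1d2 and Per3 had fold changes of -0.31 and -0.55, and both calls were lost without SNI replicate 2 or 3. The hour of tissue collection is not in the labels, and its part in these values was not tested.

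Connective tissue genes were higher across several lists. Of 40 matrix glycoproteins and proteoglycans 23 were higher and 4 lower in each fit, with 21 and 4 called in both, and of 27 collagens 13 were higher and none lower, 16 after length correction. Thbs2, a thrombospondin, had 21.4, 23.8 and 22.7 CPM in SNI and 53.1, 52.1 and 52.4 in SNI + G15 (1.22, SE 0.056, adjusted p = 5.80e-06; length-corrected 1.32). Lum and Dcn are small proteoglycans that organise collagen fibrils. Lum had 61.0, 60.3 and 60.3 CPM in SNI and 105, 100 and 112 in SNI + G15, and Dcn had 382, 389 and 381 against 564, 532 and 567. Both were also above their sham levels, 61.0 to 71.2 and 416 to 446 CPM. The collagen chains Col6a1, Col6a2 and Col6a3 rose by 0.46, 0.49 and 0.59, and Col3a1 by 0.42. Bcan and Ncan, proteoglycans of perineuronal matrix, were lower (-0.43 and -0.35, both with divided reads), and the call of Ncan was lost without SNI replicate 1 or 3.

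Fibroblast markers were higher in 11 of 17 and lower in 1. Islr, a marker of mesenchymal cells, had 23.2, 21.9 and 24.0 CPM in SNI and 49.4, 53.8 and 46.0 in SNI + G15, against 34.8 to 39.5 in sham (1.11, SE 0.071, adjusted p = 3.66e-05). The 4 defining markers of fibroblasts (Dcn, Lum, Pdgfra and Col1a1) summed to 886 to 893 CPM in SNI, 1196 to 1230 in SNI + G15 and 944 to 959 in sham. Markers of mesothelial, epithelial and arachnoid cells, which line body cavities and the meninges, were higher in 11 of 18 and lower in 2. Dsp, the desmosomal protein desmoplakin, had 6.60, 5.98 and 6.39 CPM in SNI, 15.7, 17 and 16.6 in SNI + G15 and 14.4 to 18 in sham (1.37, SE 0.075, adjusted p = 1.73e-05). Upk1b had 5, 3 and 3 reads in SNI and 19, 25 and 32 in SNI + G15, while Upk3b, another of the 4 defining mesothelial markers, had at most 1 read in any of the 6 libraries. Krt19 and Msln of the same list thus moved in opposite directions. Whether more capsule or meninges was dissected with the SNI + G15 ganglia was not tested.

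Endothelial genes were higher in 9 of 26 and lower in 1. Of the 3 defining markers, Pecam1 (0.21, adjusted p = 0.173) and Cdh5 (0.09, adjusted p = 0.553) were among the 16 not called. Vwf, the clotting factor of endothelium, had 26.2, 26.7 and 28.2 CPM in SNI and 39.9, 41.6 and 38.8 in SNI + G15 (0.57, SE 0.056, adjusted p = 0.000421; length-corrected 0.71), and the tight junction gene Cldn5 rose by 0.64. Lyve1, of lymphatic endothelium and perivascular macrophages, with divided reads, had 6.18, 6.93 and 7.57 CPM in SNI and 15.7, 14.8 and 17.7 in SNI + G15. The lower member, the VEGF receptor Kdr (-0.26), lost its call after length correction and when any 1 SNI library was left out. Of 12 mural cell genes 5 were higher, with Tagln, an actin-binding protein of smooth muscle, at 0.68.

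Secreted growth factors were higher in 13 of 31 and lower in 4. Clcf1, a cytokine of the interleukin 6 family that acts through the CNTF receptor, had 1.92, 1.75 and 2.08 CPM in SNI and 5.60, 7.65 and 6.49 in SNI + G15 (1.78, SE 0.17, adjusted p = 0.000340). Cntf, the Schwann cell factor of the same receptor, had 31.4, 29.5 and 26.8 CPM in SNI and 47.0, 51.6 and 54.5 in SNI + G15 (0.80, SE 0.076, adjusted p = 0.000353). Igf1 rose by 0.49, and Igf2, with divided reads, fell by 0.51. Il6 itself was lower (-0.83, 1 library with divided reads; length-corrected -0.97, adjusted p = 0.0135), and its TMM call was lost with DESeq2 and when SNI replicate 1 or 3, or the second SNI + G15 library, was left out. Of 35 WNT and BMP ligands and inhibitors 5 were higher and 5 lower. Bmp7 had 2.77, 2.43 and 1.87 CPM in SNI and 7.36, 8.62 and 7.30 in SNI + G15 (1.72, SE 0.16, adjusted p = 0.000342). Sfrp4, a WNT inhibitor, rose by 1.63, and Grem1, a BMP inhibitor, fell by 0.57. Metalloproteinases and their inhibitors were higher in 7 of 37 and lower in 1, 21.6% called against 15.2% of all tested genes. Among them 1 member, Mmp17 (0.35), was higher in every fit.

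**Figure D4:**
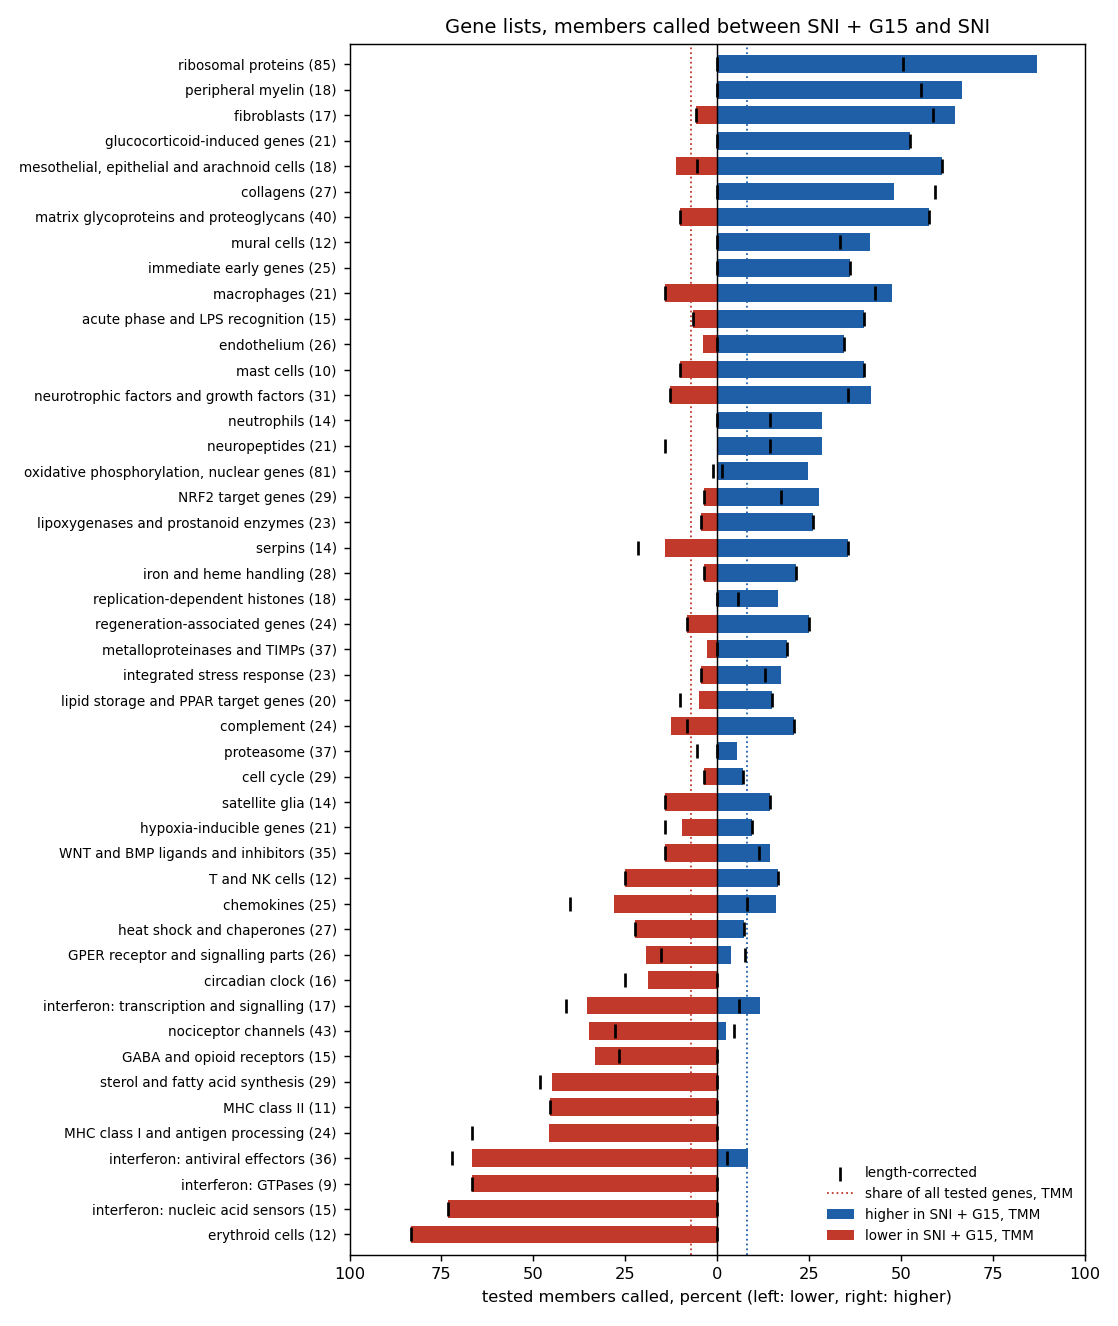
Percent of tested members called in each gene list of at least 9 tested genes, higher in SNI + G15 to the right and lower to the left, with the number tested in parentheses; black marks give the length-corrected fit and dotted lines the shares over all tested genes, 7.98% higher and 7.25% lower. The ribosomal protein, myelin and fibroblast lists lie at the top, and the erythroid and interferon sensor lists at the bottom.

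Myelin genes of Schwann cells were higher in 12 of 18 and lower in none, and in 10 after length correction. Gldn, a Schwann cell protein of the node of Ranvier, had 35.1, 34.0 and 33.8 CPM in SNI and 54.0, 51.4 and 51.5 in SNI + G15 (0.61, SE 0.050, adjusted p = 0.000160). Pmp2, a myelin fatty acid carrier, had 44.5, 38.8 and 39.0 CPM in SNI, 60.4, 58.3 and 60.7 in SNI + G15 and 145 to 172 in sham. Mbp, myelin basic protein, rose by 0.24, from 948 to 964 CPM in SNI to 1117 to 1151 in SNI + G15, with sham at 1864 to 1951. Of 14 satellite glia genes 2 were higher and 2 lower. Kcnj10, 1 of the 4 defining markers and with divided reads, fell by 0.37 (length-corrected -0.39). Slc1a3 fell by 0.29 (length-corrected -0.24), and neither of these 2 was called lower in every fit. Gfap, the intermediate filament of reactive glia, had 87.0, 83.0 and 81.7 CPM in SNI and 110.0, 117 and 121 in SNI + G15 (0.47, SE 0.050, adjusted p = 0.000658).

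Channels of sensory neurons, with those of nociceptors, the neurons of pain, among them, were lower in 15 of 43 and higher in 1. After length correction 12 were lower and 2 higher, and 6 were lower in every fit. Scn10a (adjusted p = 0.0570), Trpa1 (adjusted p = 0.142) and P2rx3 (adjusted p = 0.206) were not called. Trpv1 was called lower with TMM and after length correction, and its calls in the other fits are not given here. Scn9a and Scn11a lost their calls after length correction. Kcns1, a silent potassium channel subunit, had 59.7, 60.6 and 58.7 CPM in SNI, 34.8, 38.4 and 43.2 in SNI + G15 and 111 to 118 in sham (-0.62, SE 0.074, adjusted p = 0.00108; length-corrected -0.61). Kcnd3, a channel of transient potassium current, fell by 0.33 (length-corrected -0.21). The sodium channel genes Scn1a and Scn3a, with divided reads, had fold changes of -0.40 and -0.42, and -0.27 and -0.28 after length correction. Mrgprd, a receptor for β-alanine on nonpeptidergic nociceptors, was the 1 of 6 Mas-related receptors called lower (-0.42, divided reads), with 55.1, 53.3 and 56.3 CPM in SNI and 42.8, 43.2 and 37.5 in SNI + G15. The share called in that list was 16.7%, near the 15.2% of all tested genes. Of 15 GABA and opioid receptor genes 5 were lower, and Gabrg1 (-0.29, SE 0.054, adjusted p = 0.00936) was lower in every fit. The call of Gabra2, the GABA receptor subunit of the study (-0.23, divided reads, adjusted p = 0.0423), was lost after length correction (adjusted p = 0.0565), with limma, with a replicate block and when any 1 SNI library or SNI + G15 replicate 2 was left out.

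Calls of neuropeptide genes depended on the length correction. With TMM 6 of 21 were higher and none lower, and after length correction 3 were higher and 3 lower. Nts, neurotensin, had 2.77, 2.12 and 2.24 CPM in SNI and 4.69, 4.52 and 4.94 in SNI + G15 (0.99, SE 0.16, adjusted p = 0.00429; length-corrected 0.80). Of 24 regeneration-associated genes 6 were higher and 2 lower, with Socs3, an inhibitor of JAK and STAT signalling, at 0.36, and Arg1, arginase, at -0.29. The call of Arg1 was lost when any 1 SNI library or SNI + G15 replicate 2 was left out.

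For GPER itself the difference was within the spread of the libraries. Gper1 had 40, 33 and 27 reads in SNI and 38, 29 and 39 in SNI + G15 (0.10, SE 0.22, adjusted p = 0.816, when every gene with any read was fitted, because Gper1 was below the FPKM filter). In the same fit Esr1, estrogen receptor alpha, had 82, 85 and 89 reads in SNI and 61, 54 and 53 in SNI + G15 (-0.59, SE 0.13, adjusted p = 0.0221), and Esr2, with divided reads, had 5, 0 and 7 against 2, 4 and 4 (adjusted p = 0.884). These 3 genes were not tested with length correction or with a library left out. Among 26 genes of GPER signalling 1 was higher and 5 lower, 23.1% called against 15.2% of all tested genes. Hbegf, the growth factor that GPER releases to activate the EGF receptor, had 10.8, 12.2 and 12.1 CPM in SNI and 17.3, 16.9 and 18.4 in SNI + G15 (0.58, SE 0.073, adjusted p = 0.00134). None of the 5 lower members was called in every fit, and for Gnai1 (-0.24), an inhibitory G protein, the call was lost when any 1 SNI library was left out. Il1b was not called (0.10, adjusted p = 0.731).

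Genes of sterol and fatty acid synthesis, which SREBP factors control together, were lower in 13 of 29 and higher in none, and in 14 after length correction (median -0.17 in both fits). Hmgcs1, an early enzyme of cholesterol synthesis, had 716, 730 and 707 CPM in SNI and 599, 561 and 608 in SNI + G15 (-0.28, SE 0.040, adjusted p = 0.00241; length-corrected -0.25). Lss, lanosterol synthase, had 87.0, 87.1 and 87.3 CPM in SNI and 72.8, 73.6 and 67.0 in SNI + G15. Scd, with divided reads, fell by 0.34. These changes were small. The groups did not overlap for Hmgcs1 and Lss, which was also so for 38.9% of all tested genes.

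Among 27 chaperones 2 were higher and 6 lower. Hspa5, the main chaperone of the endoplasmic reticulum, had 419, 412 and 419 CPM in SNI, 303, 305 and 333 in SNI + G15 and 258 to 280 in sham (-0.41, SE 0.044, adjusted p = 0.000684). Creld2, another protein of that compartment, fell by 0.46, and the small heat shock protein gene Cryab rose by 0.49. Of 23 genes of the integrated stress response 4 were higher and 1 lower, 21.7% called against 15.2% of all tested genes. Nupr1 (0.75, divided reads) was higher in every fit. Hypoxia-inducible genes were 2 higher and 2 lower of 21, a share called near the 15.2% of all tested genes and evenly split. Ndrg1, at 0.31, was among the higher members. Of 20 lipid storage genes 3 were higher and 1 lower (20.0% called). Angptl4, an inhibitor of lipoprotein lipase, had 8.04, 6.99 and 7.73 CPM in SNI and 10.7 in each SNI + G15 library. Cell cycle genes were 2 higher and 1 lower of 29 (10.3% called), below the 15.2% of all tested genes. The mitotic kinase Aurkb was at 1.26, with 1.01 to 1.11 CPM in SNI and 2.25 to 2.80 in SNI + G15.

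Counts for several housekeeping lists also changed with the length correction. Ribosomal protein genes were higher in 74 of 85 with TMM and in 43 after correction, with medians of 0.43 and 0.19, and lower in none. Rpl6 had 272, 266 and 261 CPM in SNI and 355, 371 and 363 in SNI + G15 (0.45, SE 0.038, adjusted p = 0.000189; length-corrected 0.28, adjusted p = 0.00292). Rps25 (0.46) lost its call after correction (0.16, adjusted p = 0.0764). Of 81 nuclear genes of oxidative phosphorylation 20 were higher with TMM, and 1 was higher and 1 lower after correction, with medians of 0.21 and -0.03. The proteasome had 2 of 37 higher with TMM and 2 lower after correction, and histones 3 of 18 and 1 of 18 higher. With TMM these were 5.41% of the proteasome genes and 16.7% of the histones, against 15.2% of all tested genes. No mitochondrially encoded gene was found in the table by its symbol, and the 1 tested noncoding host gene was not called.

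The genes of erythroid cells, which carry and make hemoglobin, were lower in 10 of 12 and higher in none in both fits. Slc4a1, the anion exchanger of the red cell membrane, had 15.1, 15.7 and 14.5 CPM in SNI, 6.13, 6.68 and 5.37 in SNI + G15 and 3.06 to 3.94 in sham (-1.32, SE 0.091, adjusted p = 5.89e-05). Alas2, the erythroid enzyme of heme synthesis, had 11.8, 11.2 and 12 CPM in SNI and 5.65, 4.74 and 5.20 in SNI + G15. The globin gene Hba1, with divided reads, had 589, 592 and 574 CPM in SNI and 337, 382 and 411 in SNI + G15. The 4 defining markers summed to 190 to 195 CPM in SNI, 114 to 135 in SNI + G15 and 59.0 to 60.9 in sham.

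Macrophage genes moved both ways, with 10 of 21 higher and 3 lower. Gpnmb, a marker of lipid-laden macrophages, had 34.1, 35.4 and 32.1 CPM in SNI and 54.2, 54.2 and 59.0 in SNI + G15 (0.72, SE 0.059, adjusted p = 0.000172). Trem2, a lipid receptor, rose by 0.87 and F13a1, of resident macrophages, by 0.86. Ms4a7 had 4.69, 4.39 and 4.64 CPM in SNI and 2.24, 2.37 and 2.25 in SNI + G15 (-1.0, SE 0.14, adjusted p = 0.00245), and Ptprc, the leukocyte surface phosphatase CD45, fell by 0.43. The 5 defining macrophage markers summed to 176 to 193 CPM in SNI and 203 to 217 in SNI + G15. The part of macrophages in the fall of interferon genes was not tested.

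Of 12 T and NK cell genes 2 were higher and 3 lower. Cd4, which rat macrophages also carry, was called higher by 0.14 (divided reads), at 77.8 to 80.3 CPM in SNI and 86.3 to 87.6 in SNI + G15, and its call was lost in 11 other fits. Cd3e, a chain of the T cell receptor complex, had 23, 32 and 34 reads in SNI and 6, 10 and 11 in SNI + G15 (-1.69, SE 0.32, adjusted p = 0.0100). Cd8a was higher (0.89, divided reads), a call lost without SNI replicate 2, and neither of the 2 tested B cell genes was called. Mast cell genes were higher in 4 of 10 and lower in 1, Rab27b (-0.53), a call lost without SNI replicate 3. Cma1, mast cell chymase, had 4, 3 and 3 reads in SNI and 31, 20 and 36 in SNI + G15, and Cpa3, carboxypeptidase A3, had 8, 3 and 4 against 29, 26 and 27. Both were called in each edgeR and limma fit that tested them and not with DESeq2. The 4 defining mast cell markers summed to 53.7 to 58.2 CPM in SNI and 57.3 to 58.9 in SNI + G15, ranges that overlap. Kit, which other cells also express, made up most of that sum, with 53.3 to 57.7 CPM in SNI and 52.9 to 54.4 in SNI + G15, so the sum mainly follows Kit. Neutrophil genes were higher in 4 of 14 with TMM and in 2 after length correction, with Mpo, myeloperoxidase, at 0.96. None of the 6 tested skeletal muscle genes was called.

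**Figure D5:**
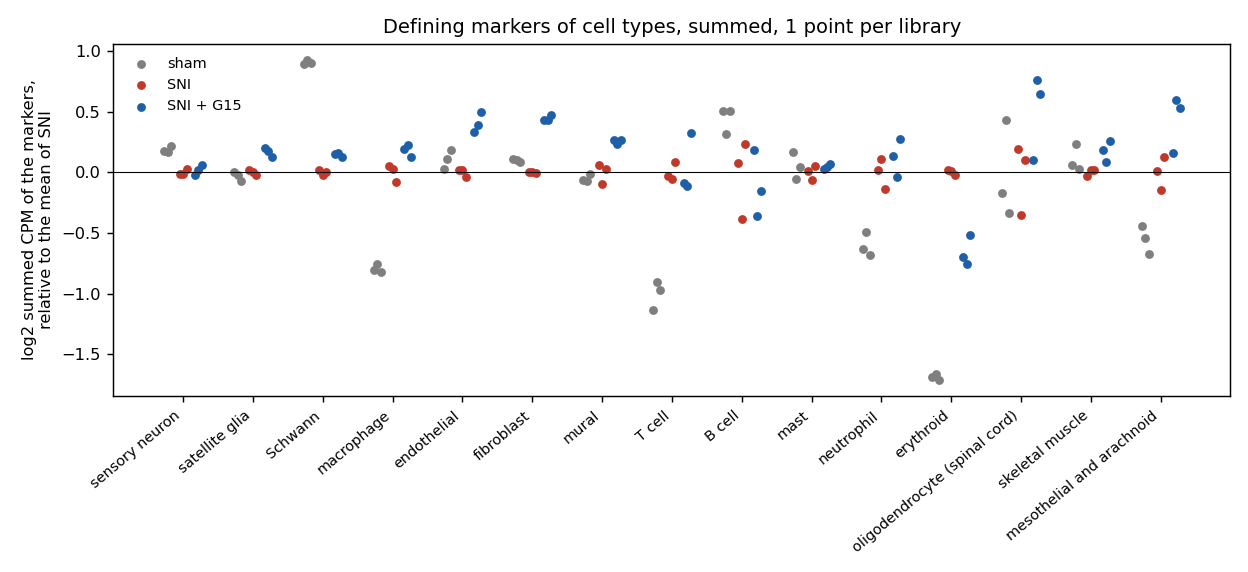
Log2 of the summed CPM of the defining markers of each cell type, relative to the mean of the SNI libraries, 1 point per library of sham, SNI and SNI + G15. Sensory neuron sums lie near 0 in both injured groups, fibroblast sums are higher in SNI + G15 (1196 to 1230 CPM against 886 to 893) and erythroid sums are lower (114 to 135 against 190 to 195).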

How the data were processed

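RNA of rat DRG was sequenced in 3 sham, 3 SNI and 3 SNI + G15 libraries. The authors deposited a gene table and a transcript table, each with an estimated count and an FPKM (fragments scaled by transcript length and library size) per library, for 20194 genes and 46843 transcripts. Per the methods, a gene's FPKM is the sum over its transcripts. The aligner and the tool that estimated the counts are not given in the sources used here, and the labels list mouse genome builds although the organism is rat, so no coordinates were taken from the tables. The estimated counts were rounded for the tests. Of the tested genes, 5225 had a count that was not whole in at least 1 of the 6 libraries. Columns were mapped to samples by name, those called Control to sham.

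Genes that reached an FPKM of 1 in any of the 9 libraries were tested between SNI + G15 and SNI with edgeR 4.0.16 (R 4.3.3) by its quasi-likelihood test with TMM factors and Benjamini-Hochberg adjustment over all 14305 genes, and were called at an adjusted p below 0.05. Effective length was the estimated count per FPKM. The length-corrected fit used offsets from a loess curve (span 0.5) of each library's centred log2 CPM on log2 effective length. Slopes were compared by a two-sided exact permutation test, with 0.5 added to CPM before the log. The fit was checked on simulated data. Alternatives used RLE factors, DESeq2 1.42.0, limma 3.58.1 on log2(FPKM + 1) and log2(FPKM + 0.1), 2 other filters, all 9 libraries, a replicate block with and without the length correction, and each library left out in turn.

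Genes were named by rule: in each direction the 12 largest changes called in both fits with groups that did not overlap and a mean of at least 30 counts in the higher group, up to 4 called members of each list per direction by adjusted p, the genes the study concerns, and cell type markers. The members and the 53 lists were chosen with earlier results of these data known. Of the tested genes 11140 had a RefSeq promoter entry. Depth was 18484557 to 18756736 estimated counts per library. Values of some genes that the rule names are not reported here.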

Additional observations from a re-analysis of the deposited data

How the results depend on the processing

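Against 2179 genes called, a replicate block gave 1292 and the block with length correction 1238. The correlations of the deviations of same-numbered libraries were -0.0612, 0.133 and 0.0872, so the numbers were not taken to pair the libraries. Leaving out 1 library at a time gave 893 to 2333 called genes, with 1098, 925 and 893 without SNI replicate 1, 2 and 3, and 310 to 512 called list members against 476, with 310 and 314 without SNI replicate 2 and 3. The other fits gave 1698 (length correction) to 2419 (all 9 libraries), within 1.5 times, and none called a gene in the opposite direction. DESeq2 gave no adjusted p for 293 genes. The difference in length slope kept its sign in every setting, from -0.0591 to -0.0997 with 1 library left out, and exact p was 0.200 without SNI replicate 3. Of the 24 genes with the largest changes, chosen as called with TMM and after length correction, 21 to 24 were called in each of the other fits. A design of 3 libraries per group cannot give an exact permutation p below 0.1, and most mast cell and T cell genes named rest on few reads. Of genes not called, Hoxc10 turned to -0.0028 with the block and length correction and ranged from -0.02 to 0.13 with 1 library left out, and Kit turned to 0.04 with length correction, with or without the block.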

Other observations

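The genes in these paragraphs were chosen after their values were seen. Hoxc11, the only homeobox gene among the largest falls, had 2.93, 2.91 and 2.82 CPM in SNI and 0.587, 0.700 and 0.698 in SNI + G15, with sham at 0.438 to 0.602. Hox genes encode factors that give cells their position along the body axis, and the groups with the highest numbers are used at lumbar and sacral levels. Hoxd11 had 4.58, 5.13 and 4.48 CPM in SNI and 1.81, 1.45 and 1.77 in SNI + G15 (log2 fold change -1.49, edgeR adjusted p = 0.000759), and Hoxd10 had 7.24, 6.51 and 6.98 against 4.69, 4.04 and 3.92 (-0.71, adjusted p = 0.00541). Sham and SNI + G15 overlapped for Hoxc11 and for Hoxd11 (sham 1.64 to 1.97), and sham was lower for Hoxd10 (2.41 to 2.66). Hoxc10 (0.05, adjusted p = 0.743), Hoxa10 (0.04, adjusted p = 0.658, divided reads), Hoxd9 (-0.11, adjusted p = 0.270) and Hoxa9 (0.13, adjusted p = 0.330, divided reads) were not called. Hoxb2 (0.37, adjusted p = 0.0170), Hoxc9 (0.34, adjusted p = 0.0169), Hoxb3 (0.36, adjusted p = 0.0209) and Hoxc6 (0.29, adjusted p = 0.0409) were called higher, the last 2 with divided reads. Each of these 4 calls was lost in some fits with a library left out, and that of Hoxc9 also after length correction.

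Some of the largest changes were in genes with a close copy whose reads are divided. Rplp0, the copy of Rplp0l1, was higher by 0.35 (adjusted p = 0.00122, divided reads), while Rplp0l1 went from 1, 0 and 0 reads to 46, 31 and 41. H3f3b, related to H3f3c, was not called (0.12, adjusted p = 0.143, divided reads). Dstn, related to Dstnl1, was lower (-0.19, adjusted p = 0.0283, divided reads). Its call was lost with a replicate block and when any 1 SNI library or SNI + G15 replicate 1 or 2 was left out.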
